A study of Rattus norvegicus with 6 samples.

Results

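Interferon regulatory factors are transcription factors that share a DNA-binding domain and control the interferon response. The 8 genes described here (Irf1, Irf2, Irf3, Irf4, Irf5, Irf7, Irf8 and Irf9) were chosen by gene symbol, as 8 of the 32623 genes in the deposited table. Each symbol occurred once there. The libraries came from primary ventricular myocardial cells of Sprague-Dawley rats on postnatal days 1 to 3, all taken from 1 isolate pooled from several animals. The control group (siNC, n = 3 libraries) received a control small interfering RNA and the other group (siMettl3, n = 3) one against Mettl3, the catalytic subunit of the m6A RNA methyltransferase. Transfection lasted 24 h and was followed in both groups by 6 h of lipopolysaccharide (LPS), the bacterial ligand of Toll-like receptor 4. Both groups received LPS, and the values compare the knockdown with its control, not LPS with its absence. The replicates share 1 isolate, so p-values measure the spread between these libraries, which may be technical.

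Members of the family differ in how they become active. Irf3, Irf5 and Irf7 are latent factors that kinases downstream of pattern-recognition receptors phosphorylate. Irf3 is made constitutively and starts interferon-beta transcription, whereas Irf7 is itself induced by interferon and amplifies it. Irf9 binds DNA for ISGF3, the complex it forms with STAT proteins at interferon-stimulated genes. Irf1 is induced by interferon and inflammatory signals, and Irf2 binds the same elements and can oppose it. Irf4 and Irf8 act mainly in lymphoid and myeloid cells, with partners such as Spi1 (PU.1) and Spib. The table annotates all 8 members with sequence-specific DNA binding and 3 of them (Irf3, Irf5 and Irf7) with the Toll-like receptor pathway of KEGG.

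Start-site sequences are shown for the members whose window held a response element through which interferon is known to act. RefSeq windows (rat build GRCr8, 250 bases before to 50 after the start) were found for 7 of the 8 members, all but Irf2. Both strands were searched for the interferon-stimulated response element as GAAANNGAAA, which interferon regulatory factors and ISGF3 bind, and for the gamma-activated site as TTCNNNGAA, which STAT dimers bind. Capitals mark the matches, and none of one kind overlapped one of the other. The first lies at chr1:205799974-205800273 (minus strand), the second at chr10:38417685-38417984, the third at chr19:65699034-65699333 and the fourth at chr15:33065586-33065885 (plus strand for the last 3), each written 5′ to 3′ along its gene.
Irf7: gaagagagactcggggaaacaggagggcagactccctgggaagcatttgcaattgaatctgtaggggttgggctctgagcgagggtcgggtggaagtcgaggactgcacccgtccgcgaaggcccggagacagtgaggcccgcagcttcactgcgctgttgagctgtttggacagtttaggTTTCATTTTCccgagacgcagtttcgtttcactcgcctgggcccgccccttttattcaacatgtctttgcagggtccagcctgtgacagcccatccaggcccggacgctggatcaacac
Irf1: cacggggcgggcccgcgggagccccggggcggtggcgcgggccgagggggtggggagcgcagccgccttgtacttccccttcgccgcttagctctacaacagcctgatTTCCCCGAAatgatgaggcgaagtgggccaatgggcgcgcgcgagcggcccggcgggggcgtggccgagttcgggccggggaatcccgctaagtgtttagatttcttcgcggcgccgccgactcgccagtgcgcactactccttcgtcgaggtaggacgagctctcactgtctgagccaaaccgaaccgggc
Irf8: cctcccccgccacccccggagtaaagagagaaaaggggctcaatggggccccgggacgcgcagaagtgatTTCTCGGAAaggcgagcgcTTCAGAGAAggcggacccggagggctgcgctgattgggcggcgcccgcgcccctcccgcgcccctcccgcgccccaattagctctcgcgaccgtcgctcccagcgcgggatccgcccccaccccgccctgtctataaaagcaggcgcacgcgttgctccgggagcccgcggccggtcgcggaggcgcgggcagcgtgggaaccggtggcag
Irf9: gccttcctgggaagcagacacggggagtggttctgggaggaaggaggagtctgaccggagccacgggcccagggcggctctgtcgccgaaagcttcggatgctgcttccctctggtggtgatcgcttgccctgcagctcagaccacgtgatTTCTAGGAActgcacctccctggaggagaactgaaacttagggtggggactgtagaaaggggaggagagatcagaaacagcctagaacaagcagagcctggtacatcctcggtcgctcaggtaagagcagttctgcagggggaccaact
The Irf7 window held 1 response element, on the strand opposite to the gene, from 69 to 60 bases before the start. Irf1 held 1 gamma-activated site, 142 to 134 bases before it, and Irf9 held 1, at 99 to 91 bases. Irf8 held 2, beginning 180 and 161 bases before the start. The windows of Irf3, Irf4 and Irf5 held neither string of letters. Among all 33469 RefSeq windows the response element occurred in 3.92% and the gamma-activated site in 8.87%. Among the windows of ISGF3 target genes 15 of 22 held the response element, as did 13 of 19 among those of Irf1 target genes. These are matches of letters, and binding was not measured.

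The knockdown was checked first. Mettl3 measured 18.2, 17.2 and 15.3 FPKM (fragments scaled to transcript length and to the library's total) in siNC replicates 1, 2 and 3 and 10.3, 10.6 and 9.90 FPKM in siMettl3 replicates 1, 2 and 3. Its groups did not overlap (limma log2 fold change -0.67, SE 0.0741, adjusted p = 0.00661). Total counts were 71202469 to 76668751 per library. Cardiomyocyte markers dominated, with a summed level of 24226 to 28195 FPKM over 9 genes in siNC and 20461 to 23928 FPKM in siMettl3. The filter of 1 FPKM on the mean left 13105 genes, of which 4.4% were called lower and 6.53% higher in siMettl3 by limma at an adjusted p under 0.05. By edgeR on the counts of the same genes the shares were 6.59% lower and 3.4% higher. In siNC Irf7 rested on 24634 to 27651 counts per library and Irf4 on 74 to 114.

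Irf7 was the most abundant member in every library and the only one called lower by limma or edgeR. Irf9, Irf1 and Irf3 followed at about the same level, then Irf2, then Irf5 and Irf8, and Irf4 was the lowest, below 1 FPKM. Irf7 fell, Irf4 rose in the tests that took in genes of low level, and the other members did not pass. By limma 1 of the 7 members tested was lower and 0 were higher. At an unadjusted p under 0.05, 4 were lower (Irf1, Irf5, Irf7 and Irf8) and 0 higher, beside 9.89% of all tested genes lower and 21.5% higher. edgeR on the same genes called Irf7 lower and 0 members higher, and DESeq2 called those 4 lower, where it called 10.6% of all genes lower. The libraries of these 4 members did not overlap between groups, whereas 11.5% of tested genes were lower without overlap. The median log2 fold change of the 7 members was -0.18, beside 0.067 for all tested genes.

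**Figure D1:**
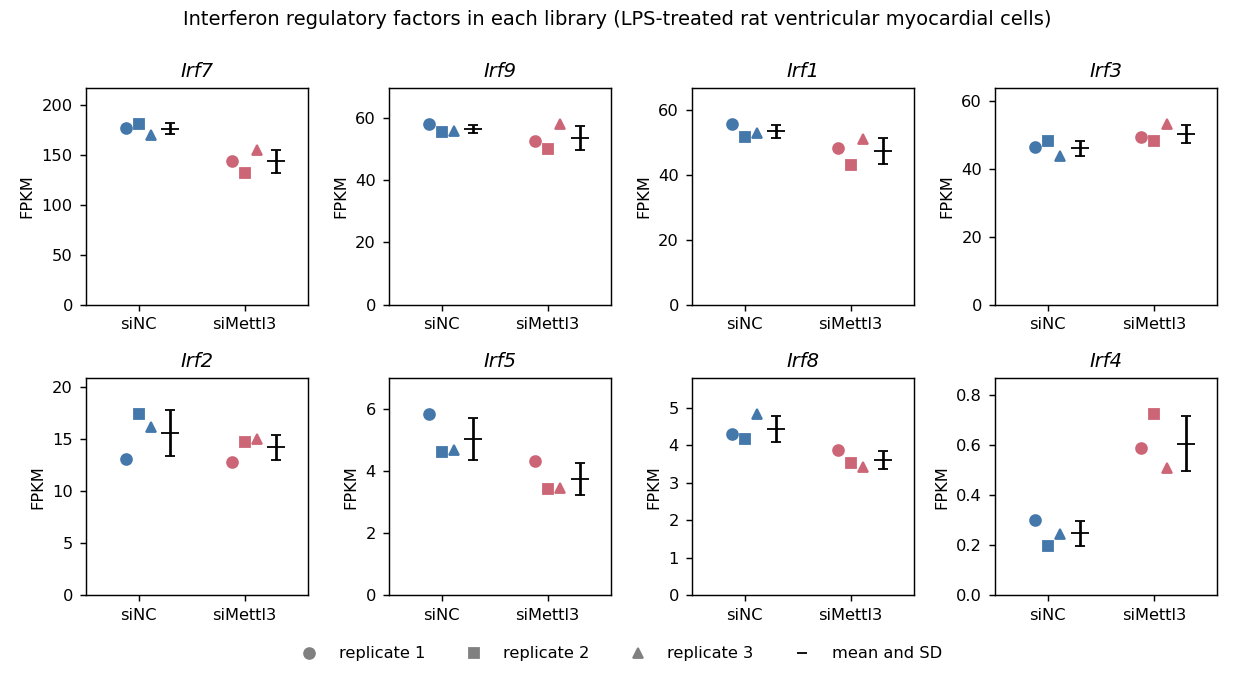
Level of each family member in FPKM (vertical axes from 0, one scale per gene) in the 3 siNC and 3 siMettl3 libraries, with replicate numbers as symbols and the mean with SD as bars. The siMettl3 libraries lie below all siNC libraries for Irf7, Irf1, Irf5 and Irf8 and above them for Irf4.

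Irf7 measured 178, 181 and 170 FPKM in siNC replicates 1, 2 and 3. In siMettl3 replicates 1, 2 and 3 it measured 144, 132 and 155 FPKM. Every siMettl3 library lay below every siNC library, with replicate 2 the lowest. The mean went from 176 ± 5.55 to 144 ± 11.9 FPKM (SD, n = 3), which is 81.4% of the control level. On the log2(FPKM + 1) scale limma put the log2 fold change at -0.30 (SE 0.0712, 95% interval -0.47 to -0.13, adjusted p = 0.0442), while by edgeR it came to -0.37 (adjusted p = 0.0240). The limma call did not survive the loss of any 1 library. Without siNC replicates 1, 2 and 3 the limma adjusted p was 0.136, 0.125 and 0.0651, and without siMettl3 replicates 1, 2 and 3 it was 0.125, 0.0851 and 0.0516. edgeR on all genes with any count (adjusted p = 0.0345, with 3.16% of genes called lower) kept the call without siMettl3 replicate 3 (0.0440) and lost it without siMettl3 replicates 1 and 2 (0.121 and 0.0612) and without any siNC replicate (0.0593 to 0.131). The gene (ENSRNOG00000017414) occupies bases 214248837 to 214252456 of chromosome 1, minus strand, in the coordinates of the table, which names no build. It shares 65 bases with Phrf1 on the opposite strand, which measured 13.2 and 16.0 FPKM in siNC and siMettl3. The counting is not stated to use strand, so reads of the shared bases cannot be assigned to either gene.

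The other latent factors were Irf3 and Irf5. Irf3 measured 46.3, 48.1 and 43.7 FPKM in siNC replicates 1, 2 and 3 and 49.3, 48.0 and 53.1 FPKM in siMettl3 replicates 1, 2 and 3. The groups overlapped, and 2 of 3 siMettl3 libraries lay above all controls. limma put its log2 fold change at 0.12 (95% interval -0.02 to 0.27, adjusted p = 0.220), and by edgeR it came to 0.05 (adjusted p = 0.655). Irf3 (chromosome 1, 100992405 to 100997198, plus strand) overlaps Bcl2l12 on the opposite strand by 865 bases, and Bcl2l12 was at 6.13 and 6.60 FPKM.

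Irf5 is known for driving inflammatory cytokines in macrophages. It measured 5.82, 4.60 and 4.66 FPKM in siNC replicates 1, 2 and 3 and 4.33, 3.43 and 3.44 FPKM in siMettl3 replicates 1, 2 and 3. All siMettl3 libraries were below all controls, and replicate 1 was the highest in each group. The mean was 74.3% of the control, a log2 fold change of -0.35 (SE 0.116, 95% interval -0.62 to -0.07) that did not pass in limma (adjusted p = 0.0973) or edgeR (-0.50, adjusted p = 0.0684). DESeq2 called it (adjusted p = 0.00944). Irf5 (chromosome 4, 56805132 to 56820543, plus strand, 2 transcripts in the table) shares 521 bases with Tnpo3 on the opposite strand, which was more abundant at 16.6 and 18.0 FPKM.

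Within each library Irf7 was weighed against Irf3, a ratio that does not depend on scaling between libraries. This pair and 3 others were chosen after the values had been seen. Irf7 was 3.84, 3.77 and 3.90 times as high as Irf3 per length in siNC replicates 1, 2 and 3 and 2.92, 2.74 and 2.93 times in siMettl3 replicates 1, 2 and 3. The ranges lay apart. So did those of Irf9 to Irf3, at 1.15 to 1.28 in siNC and 1.04 to 1.09 in siMettl3, so the separation was not particular to Irf7. Both ratios are taken over Irf3, the only tested member with a log2 fold change above 0 (0.12 by limma). The share of other gene pairs whose ratios lie apart was not computed. The ratios of Irf1 to Irf2 (2.99 to 4.26 and 2.92 to 3.76) and of Irf5 to Irf8 (0.965 to 1.36 and 0.969 to 1.11) overlapped between groups. Irf7 made up 48.8% to 49.9% of the summed FPKM of the 8 members in siNC and 44.6% to 45.7% in siMettl3. The summed level itself was 349 to 363 FPKM in siNC and 295 to 340 FPKM in siMettl3.

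**Figure D2:**
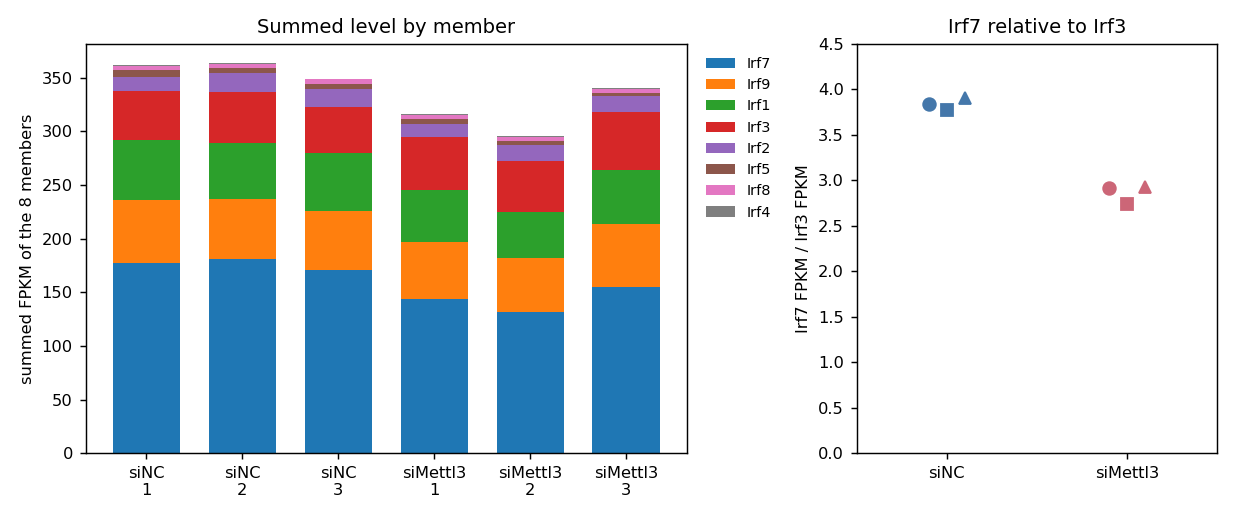
Left, stacked bars of the FPKM of the 8 members in each library, starting at 0. Right, the ratio of Irf7 to Irf3 FPKM in each library, which was 3.77 to 3.90 in siNC and 2.74 to 2.93 in siMettl3.

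Of the members induced by or acting downstream of interferon, Irf1 measured 55.8, 51.9 and 53.2 FPKM in siNC replicates 1, 2 and 3 and 48.3, 43.0 and 51.1 FPKM in siMettl3 replicates 1, 2 and 3. The groups did not overlap, but siMettl3 replicate 3 lay just under siNC replicate 2. The mean was 88.5% of the control, and neither limma (log2 fold change -0.18, SE 0.0726, adjusted p = 0.152) nor edgeR (-0.25, adjusted p = 0.0765) called it, whereas DESeq2 did (adjusted p = 0.0311). Irf1 lies on chromosome 10 from 39109522 to 39116531, plus strand.

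Irf9 measured 58.0, 55.5 and 55.7 FPKM in siNC replicates 1, 2 and 3 and 52.6, 50.1 and 57.8 FPKM in siMettl3 replicates 1, 2 and 3. Its mean was 94.9% of the control level, and siMettl3 replicate 3 lay among the controls. The log2 fold change was -0.08 (95% interval -0.23 to 0.07, limma adjusted p = 0.445). Irf2 varied more between replicates of a group than between groups, at 13.1, 17.4 and 16.2 FPKM in siNC replicates 1, 2 and 3 and 12.8, 14.7 and 15.1 FPKM in siMettl3 replicates 1, 2 and 3. Its log2 fold change was -0.12 (95% interval -0.38 to 0.15, limma adjusted p = 0.503). Irf9 lies on chromosome 15 (34282936 to 34288138, plus strand) and Irf2 on chromosome 16 (48582026 to 48732932, minus strand, 2 transcripts).

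Irf8, which directs the development of macrophages and dendritic cells, measured 4.30, 4.18 and 4.83 FPKM in siNC replicates 1, 2 and 3. In siMettl3 replicates 1, 2 and 3 it measured 3.89, 3.54 and 3.41 FPKM. All siMettl3 libraries were below all controls, and the mean was 81.5% of theirs. By limma the log2 fold change was -0.24 (SE 0.0823, 95% interval -0.43 to -0.04, adjusted p = 0.108) and by edgeR -0.37 (adjusted p = 0.0629), so the gene did not pass in either, while DESeq2 called it (adjusted p = 0.0145). Irf8 lies on chromosome 19 from 54314865 to 54336640, plus strand.

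Irf4, a factor of activated lymphocytes and of some macrophages, was below 1 FPKM in every library and higher in siMettl3. It had 114, 74 and 86 counts in siNC replicates 1, 2 and 3 and 217, 267 and 182 counts in siMettl3 replicates 1, 2 and 3. The lowest siMettl3 library thus stood above the highest control, as was the case in FPKM for 18.6% of the 21272 genes with any count. In FPKM the means were 0.247 ± 0.0512 and 0.606 ± 0.109 (SD, n = 3). A mean below 1 FPKM kept Irf4 out of the main limma test. edgeR on all genes with any count called it higher (log2 fold change 1.22, adjusted p = 0.0260), where it called 1.45% of genes higher. limma without the filter also called it (adjusted p = 0.0436), where 2.35% of genes were called higher. Its log2 fold change there, 0.36, is compressed by the pseudocount of 1. By edgeR the adjusted p was 0.0620, 0.0772 and 0.0658 without siNC replicates 1, 2 and 3, 0.0874 and 0.0795 without siMettl3 replicates 1 and 2, and 0.0468 without siMettl3 replicate 3. These fits were added after the data had been seen. The gene (ENSRNOG00000061070) occupies bases 34886739 to 34905117 of chromosome 17, minus strand, with 2 transcripts.

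**Figure D3:**
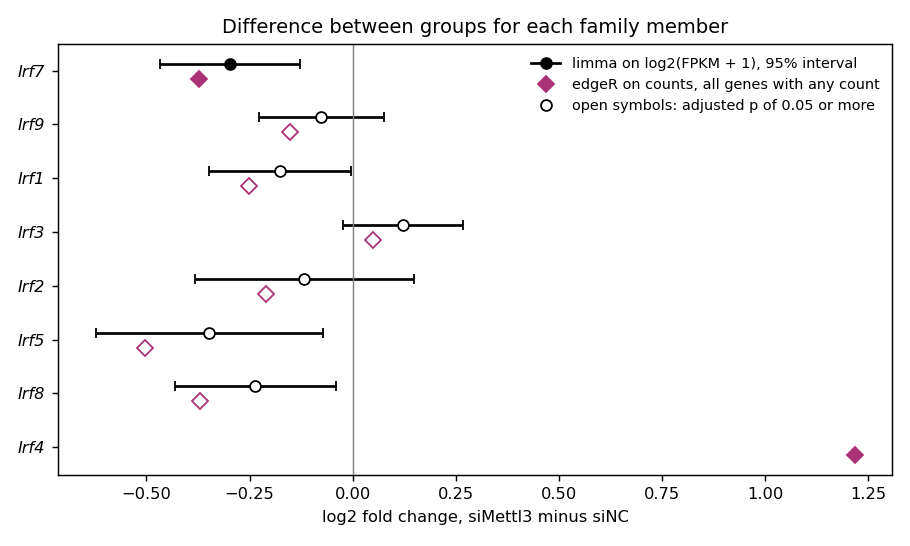
Log2 fold change (siMettl3 minus siNC, horizontal axis) of each member by limma on log2(FPKM + 1), with its 95% interval, and by edgeR on the counts of all genes with any count. Filled symbols mark an adjusted p under 0.05, which Irf7 had in both tests and Irf4 in edgeR. Irf4 has no limma point because its mean was below 1 FPKM.

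**Figure D4:**
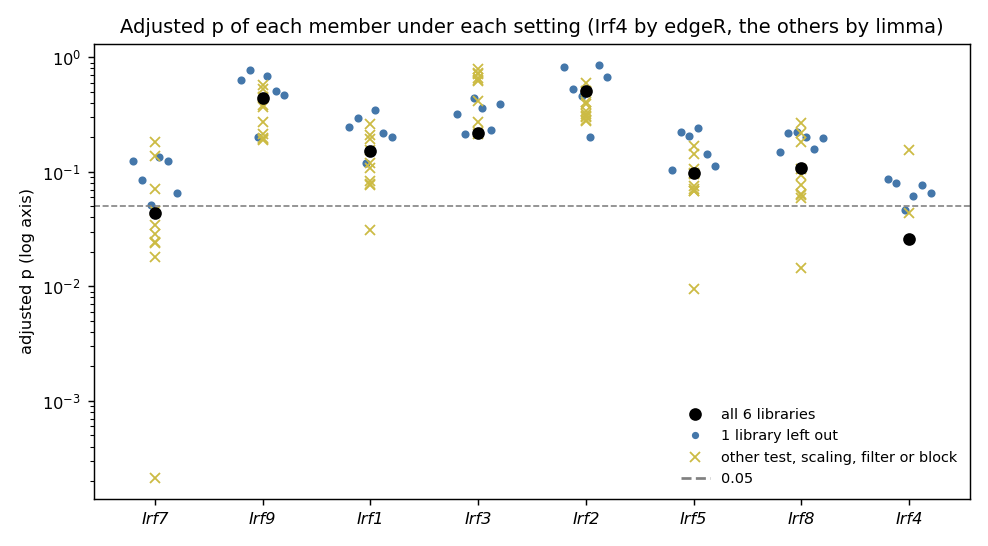
Adjusted p (log axis) of each member with all 6 libraries, with 1 library left out and under the other tests, scalings, filters and blocks, for Irf4 by edgeR on all genes with any count. The dashed line is at 0.05, and no member stays below it throughout.

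In siNC the order of levels per length was Irf7, Irf9, Irf1, Irf3, Irf2, Irf5, Irf8 and Irf4. The libraries of Irf9 and Irf1 overlapped, as did those of Irf5 and Irf8, and the other neighbours lay apart. In siMettl3 the mean of Irf3 stood above that of Irf1, and Irf9, Irf3 and Irf1 each overlapped with the next in that order. Irf5 and Irf8 overlapped again. The genes with the profile most like that of Irf7 over the 6 libraries were Sparc, Acyp1 and Tnfsf18. Their Euclidean distances from it were 0.0502, 0.0543 and 0.0556 in log2(FPKM + 1) centred on each gene's mean, while Irf7 lay 0.406 from a flat profile. None of these 3 genes passed the limma threshold (adjusted p of 0.0682, 0.0533 and 0.0632).

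Partners of the family were given from lists chosen with earlier results of these data known. Stat2, a subunit of ISGF3 with Irf9, fell. It measured 128, 122 and 129 FPKM in siNC replicates 1, 2 and 3 and 99.4, 98.6 and 110 FPKM in siMettl3 replicates 1, 2 and 3, without overlap (log2 fold change -0.30, limma adjusted p = 0.0315). In this gene, as in Irf7, Irf9, Irf1, Irf3 and Irf2, siMettl3 replicate 3 was the highest of its group. In Irf4, Irf5 and Irf8 another replicate was the highest. Leaving out any siNC replicate ended the call for Stat2 (adjusted p of 0.112, 0.0672 and 0.0643 for replicates 1, 2 and 3). Leaving out siMettl3 replicate 1 or 2 ended it as well (0.107 and 0.0782). edgeR called it too (adjusted p = 0.0147).

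Among the 12 JAK-STAT genes, 3 fell and 2 rose (all tested genes, 4.4% lower and 6.53% higher), with a median log2 fold change of 0.0064. Among those that fell was Usp18, which dampens the interferon receptor (207 ± 13.3 to 139 ± 20.9 FPKM) and is also counted among the ISGF3 targets. Those that rose were Socs3, an inhibitor of cytokine signalling (23.4 ± 3.06 to 36.7 ± 3.57 FPKM), and the receptor-associated kinase Tyk2 (5.22 ± 0.566 to 7.09 ± 0.546 FPKM). With siNC replicate 1, siMettl3 replicate 1 or siMettl3 replicate 2 left out, limma called 0 of the 12. Without siNC replicate 2 it called 1, and without siNC replicate 3 it called 1 lower and 1 higher. Tyk2 was lost whichever library was left out (0.0690 to 0.122), and edgeR did not call it (adjusted p = 0.0592).

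Interferons themselves were hardly detected. Of 11 interferon genes in the list 8 had no count in any library, namely Ifna1, Ifna2, Ifna4, Ifna5, Ifna11, Ifnk, Ifnl1 and Ifnl3. A count of 0 is compatible with up to 3 counts in a library, for counting error only. Ifnb1, the interferon-beta gene that Irf3 starts, had 21, 4 and 12 counts in siNC replicates 1, 2 and 3 and 8, 4 and 9 counts in siMettl3 replicates 1, 2 and 3. The groups overlapped, and a difference was not detectable at this depth (edgeR on all genes with any count, adjusted p = 0.616). Of the 6 tested receptor genes 2 rose and 0 fell, Ifnar1 of the type I receptor (19.4 ± 0.881 to 24.2 ± 0.742 FPKM, adjusted p = 0.0228) and Ifnlr1 of the lambda receptor (4.01 ± 0.377 to 5.58 ± 0.390 FPKM, adjusted p = 0.0357). Ifnar1 passed limma only without siNC replicate 3 when 1 library was left out (adjusted p = 0.0358, against up to 0.0902 without siNC replicate 1), and Ifnlr1 passed in none of those fits (0.0667 to 0.107). edgeR also called both (adjusted p = 0.0382 and 0.0412). Over all tested genes limma called 6.53% higher and edgeR 3.4%.

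Genes that act before Irf3, Irf5 and Irf7 moved in part. Of 17 tested sensors, adaptors and kinases 4 fell and 1 rose, beside 4.4% of all tested genes lower and 6.53% higher. The median log2 fold change of the 17 was -0.02. The LPS co-receptor Cd14 fell (6.22 ± 0.287 to 4.01 ± 0.210 FPKM, -0.53) and kept its limma call whichever library was left out (adjusted p of at most 0.0487). By edgeR on all genes with any count it was lost without siNC replicate 1 (0.0527) and siMettl3 replicate 1 (0.0566). The cytosolic RNA sensors Ddx58 (RIG-I, -0.54), Ifih1 (MDA5, -0.52) and Dhx58 (LGP2, -0.40) fell as well. Mavs, the adaptor of Ddx58 and Ifih1, rose (0.28). Ddx58, Ifih1 and Dhx58 are themselves interferon-stimulated genes. They were lost without siNC replicate 1 (adjusted p of 0.0851, 0.0867 and 0.0954) and without siMettl3 replicate 1 (0.0756, 0.0827 and 0.0898) or replicate 2 (0.0629, 0.0573 and 0.0675). Ifih1 was also lost without siNC replicate 3 (0.0516) and Dhx58 without siNC replicate 2 (0.0730). Mavs passed only without siNC replicate 3 (0.0487), and edgeR did not call it (adjusted p = 0.0588). The kinases Tbk1 (11.9 ± 0.652 and 11.7 ± 0.616 FPKM) and Ikbke (7.34 ± 0.261 and 7.36 ± 0.291 FPKM), which phosphorylate Irf3 and Irf7, had log2 fold changes of -0.02 and 0.0024.

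Known targets of the family were counted next. Of 26 tested ISGF3 targets 14 fell and 2 rose, with a median log2 fold change of -0.39, and by edgeR 16 fell and 2 rose. Over all tested genes limma called 4.4% lower and 6.53% higher, and edgeR 6.59% and 3.4%. The antiviral GTPase Mx1 measured 105, 99.3 and 104 FPKM in siNC replicates 1, 2 and 3 and 49.7, 41.5 and 56.7 FPKM in siMettl3 replicates 1, 2 and 3. Its log2 fold change was -1.05, and its groups lay far apart. Ifit2 (-1.03), Ifit1bl (-1.09) and Cmpk2 (-0.94) fell with it, and these 4 kept their call whichever library was left out, by limma and by edgeR on all genes with any count. The count of targets that fell was 4 without siNC replicate 1 or siMettl3 replicate 1, 7, 9 and 8 without siNC replicates 2 and 3 and siMettl3 replicate 2, and 14 without siMettl3 replicate 3. The 2 that rose were Ifi27 (0.91), lost without siMettl3 replicate 1 (adjusted p = 0.0519), and Bst2 (0.71), lost without siMettl3 replicates 1, 2 and 3 (0.0889, 0.0561 and 0.0754) and siNC replicate 1 (0.0757). Isg15, the ubiquitin-like member of that list, overlapped between groups at 211, 214 and 158 FPKM in siNC replicates 1, 2 and 3 and 181, 147 and 222 FPKM in siMettl3 replicates 1, 2 and 3.

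Of 21 tested Irf1 targets 3 fell and 0 rose by limma, with a median of -0.17, while edgeR called 6 lower. The shares of all tested genes called lower were 4.4% by limma and 6.59% by edgeR. The peptide transporter Tap1 went from 49.9 ± 1.58 to 33.1 ± 4.56 FPKM (-0.59), the GTPase Gbp5 from 62.3 ± 2.32 to 46.5 ± 4.74 FPKM (-0.42), and Nlrc5, the activator of MHC class I genes, from 7.54 ± 0.735 to 5.19 ± 0.721 FPKM (-0.47). The number that fell was 0 without siNC replicate 1 or 2 or siMettl3 replicate 1, 1 without siNC replicate 3 or siMettl3 replicate 2, and 4 without siMettl3 replicate 3.

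**Figure D5:**
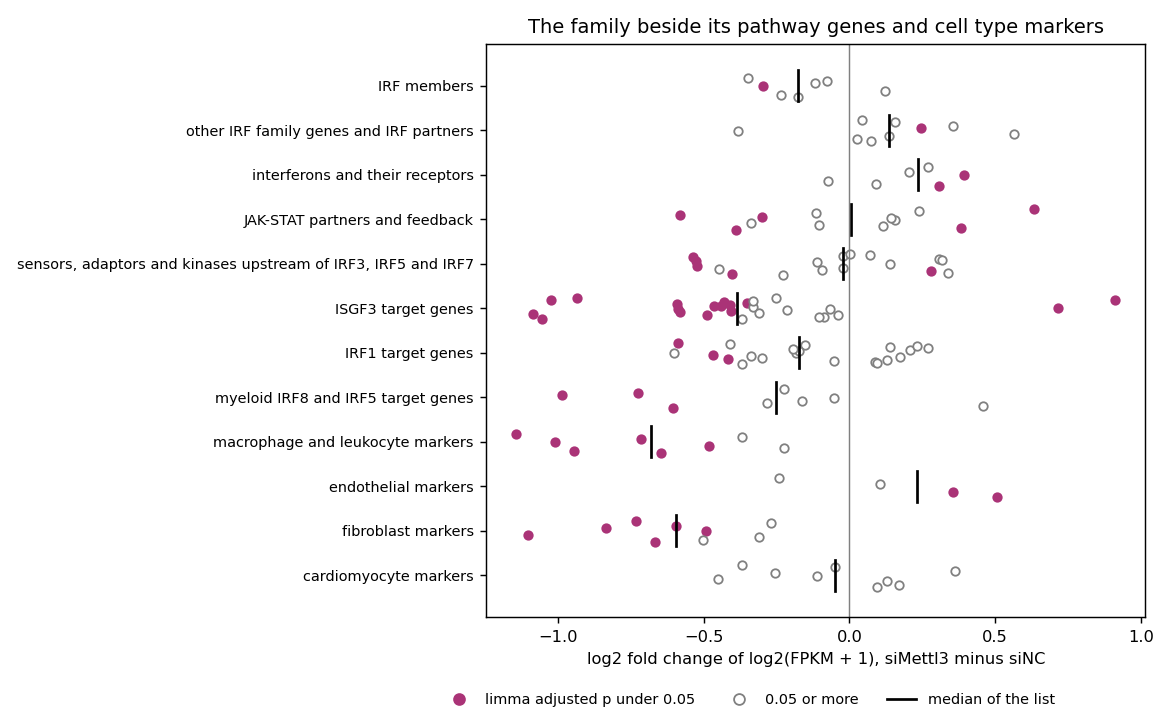
Log2 fold change of log2(FPKM + 1), siMettl3 minus siNC, for every tested gene of each list (points, filled where the limma adjusted p was under 0.05) with the list median as a bar. The family median of -0.18 lies between those of the ISGF3 targets (-0.39) and of all tested genes (0.067). The macrophage and the fibroblast markers lie lower, at -0.68 and -0.60.

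Irf5 and Irf8 are known from leukocytes, whose markers were measured in the same libraries. Of 8 tested macrophage and leukocyte markers 6 fell and 0 rose (edgeR, 7 fell), with a median of -0.68, and their summed level over 14 genes was 82.7 to 102 FPKM in siNC and 42.5 to 57.5 FPKM in siMettl3. The number that fell was 1 without siNC replicate 1 or siMettl3 replicate 1 and 3 without siMettl3 replicate 2. Of all tested genes limma called 4.4% lower and edgeR 6.59%. C1qb, a complement subunit of macrophages, went from 2.40 ± 0.307 to 0.688 ± 0.171 FPKM. Ptprc (CD45, on all leukocytes) measured 0.434, 0.623 and 0.720 FPKM in siNC replicates 1, 2 and 3 and 0.375, 0.343 and 0.417 FPKM in siMettl3 replicates 1, 2 and 3, and Spi1 measured 0.936 ± 0.314 and 0.693 ± 0.0287 FPKM. None of the 14 markers was at 0 in all libraries. In these bulk libraries fewer cells of a type and less RNA per cell cannot be told apart. The part of these markers, or of the fibroblast markers given below, in the values of Irf5, Irf7 and Irf8 was not tested.

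Of 8 tested genes known as targets of Irf8 or Irf5 in myeloid cells 3 fell and 0 rose (edgeR, 5 fell), with a median of -0.25. They were the oxidase subunit Cybb (2.24 ± 0.0257 to 1.13 ± 0.0717 FPKM), the lysosomal protease Ctss (3.88 ± 0.528 to 1.47 ± 0.426 FPKM) and the cytokine Il6 (10.5 ± 0.760 to 6.00 ± 1.19 FPKM). None of the 3 was called without siNC replicate 1 or siMettl3 replicate 1 (adjusted p of 0.0523, 0.0613 and 0.0856, and of 0.0553, 0.0555 and 0.0774), and Il6 was also lost without siNC replicate 2 (0.0650). Fibroblast markers fell too, 6 of 9 with a median of -0.60 (4 to 5 with 1 library left out), and their summed level was 1490 to 1559 FPKM in siNC and 909 to 968 FPKM in siMettl3. Of 4 tested endothelial markers 2 rose (Cdh5, 0.51, and Tek, 0.36) and 0 fell, though with 1 library left out at most 1 was called. Cardiomyocyte markers passed in neither direction by limma (edgeR, 2 of 9 fell). Beside these lists, limma called 4.4% of all tested genes lower and 6.53% higher, and edgeR 6.59% and 3.4%.

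Lymphocyte markers were at or near 0 in both groups. All 10 were below the filter, 5 of them (the T cell receptor subunits Cd3e and Cd3d among them) had no count in any library, and their summed level was 0.566 to 1.29 FPKM in siNC and 0.404 to 0.695 FPKM in siMettl3. Spib, an ETS factor that partners Irf4 in lymphoid cells, was higher in siMettl3. It had 23, 34 and 44 counts in siNC replicates 1, 2 and 3 and 88, 103 and 141 counts in siMettl3 replicates 1, 2 and 3. edgeR on all genes with any count gave a log2 fold change of 1.64 (adjusted p = 0.0418), a call that held without siNC replicate 3 (0.0459) but not without siNC replicate 1 or 2 (0.125 and 0.115) or any siMettl3 replicate (0.0868, 0.0902 and 0.124 for replicates 1, 2 and 3). That test called 1.45% of genes higher. Spi1, Batf, Batf2, Batf3 and Ikzf1 of the same list overlapped between groups, at 74.0%, 95.4%, 71.7%, 99.8% and 89.7% of the siNC mean. Of that list's 9 genes in the main test 3 were higher without overlap. The share was 18.6% over all genes with any count, a wider set that includes genes below the filter. It was not computed for the genes of the main test alone. Spib is named after its values were seen, from 13 other family and partner genes. Of the 9 of these in the main test 1 rose and 0 fell, beside 6.53% of all tested genes higher. The gene that rose was the corepressor Irf2bp1 (7.30 ± 0.0713 to 8.83 ± 0.0736 FPKM, limma adjusted p = 0.0368). edgeR did not call it (adjusted p = 0.0698), and limma lost it whichever library was left out (0.0643 to 0.123).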

How the data were processed

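RNA was sequenced from 6 libraries, 3 per group, and the authors deposited 1 table with a count and an FPKM value per gene and library. Per the file headers the FPKM columns are normalized for gene length and library depth, and the deposited counts are whole numbers. Bowtie 0.12.2 and mm8, a mouse build, are listed per the submitters' processing notes with no step given, while the table holds rat gene IDs. The build and annotation behind the table's coordinates, and whether counting used strand, are not given in the sources used here. A gene's FPKM was a constant multiple of its count over the library total, within 1% in 98.69% of values for 14527 genes with at least 20 counts, and counts of 0 are listed as 0.0001 FPKM.

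The main test was limma 3.58.1 (R 4.3.3; variance trend, two-sided, Benjamini-Hochberg over all genes tested) on log2(FPKM + 1) for genes whose mean reached 1 FPKM. Fold changes on that scale understate the change of low genes. The quasi-likelihood test of edgeR 4.0.16 on the deposited counts and DESeq2 1.42.0 stood beside it. Scripts were tested on simulated data. Other alternatives were median-ratio and quantile scaling, a pseudocount of 0.1, no filter, leaving out each library, and a replicate block. Leave-one-out and block fits of edgeR on all genes with any count were added after the data had been seen.

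The members and lists were chosen with earlier results of these data known. Named genes were Mettl3, all members, up to 4 called genes per list with the smallest adjusted p, Stat2, Ifnb1, Spi1 and Ptprc, and the 3 genes closest to a called member. Tbk1, Ikbke, Isg15 and Spib were named after their values had been seen. A few genes that the lists or this rule hold are not reported here. The 95% intervals are limma's and rest on the spread between libraries, while the limit for a count of 0 covers counting error only. Values with a library left out are limma's unless edgeR is named.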

Additional observations from a re-analysis of the deposited data

How the results depend on the processing

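The log2 fold change of each of the 7 tested members kept its sign in all 16 alternatives to the main limma test, and that of Irf4 in all 8 alternatives to edgeR on all genes with any count. Calls moved. The count of members called lower was 1 in the main test, 4 by DESeq2, 0 by limma without the filter and 0 by limma with any 1 library left out, where 1 to 3 members were lower at an unadjusted p under 0.05, beside 7.71% to 10.5% of all genes. By edgeR on all genes with any count it was 1 without siMettl3 replicate 3 and 0 without any other library. The count called higher was 0 in the main test and 1 by edgeR on all genes with any count and by limma without the filter. Over all genes 1432 were called, against 2394 by DESeq2, 903 without the filter and 206 to 861 with 1 library left out. ISGF3 targets called lower numbered 14, against 9 without the filter and 4 to 14 with 1 library left out. Irf1 targets called lower numbered 3, against 6 by edgeR with either scaling and by limma with median-ratio scaling, 7 by DESeq2 and by quantile normalization, and 0 to 4 with 1 library left out. Scaling changed the balance of limma calls over all genes: 59.8% were higher in the main test, 31.4% with median-ratio scaling and 38.4% with quantile normalization. By edgeR, which differs from the main test in input, test and scaling at once, 34.0% were higher. Over all genes the log2 fold change had a median of 0.067 in the main test and 0.0057 with median-ratio scaling.

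Same-numbered libraries showed no shared deviation from their group means, with correlations of 0.0346, -0.2546 and -0.1188. With 3 libraries per group these values cannot settle whether the replicate numbers pair the libraries. With the replicate block limma called 6 genes in all, 0 members, 0 ISGF3 targets and 0 Irf1 targets, and edgeR called 64 genes, 0 members, 5 ISGF3 targets and 0 Irf1 targets. At an unadjusted p under 0.05, 2 members were lower with the block by limma and 4 by edgeR, beside 7.5% and 11.2% of all genes. With the block the adjusted p was 0.182 for Irf7 by limma and 0.155 for Irf4 by edgeR on all genes with any count. Mettl3, the target of the knockdown, also lost its call with the block in these 2 tests (0.0726 and 0.0679). By edgeR on the genes of the main test it kept the call (0.0443). Calls lost with the block are therefore not particular to the members. With 3 libraries per group from 1 isolate, the 95% intervals of Irf2, Irf3 and Irf9 included 0, which does not show that they were equal between groups.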
